A study of Homo sapiens with 4 samples.

Results

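The peaks of SCC1 and CTCF were compared with each other in wild-type HAP1 cells. HAP1 is an adherent human line with close to 1 copy of most chromosomes, which descends from chronic myeloid leukaemia cells. SCC1, also named RAD21, is the kleisin subunit that closes the cohesin ring, and CTCF is a DNA-binding protein with zinc fingers that marks insulators and the feet of chromatin loops. The study profiled both proteins by chromatin immunoprecipitation and sequencing (ChIP-seq) in HAP1 cells with unaltered CTCF and in HAP1 cells whose CTCF carries Y226A and F228A. Of its 4 samples, the 2 from cells of wild-type genotype were used, 1 per antibody, and neither the substitutions nor any other engineered allele is given for them. The members are all peaks of these 2 lists on chromosomes 1 to 22 and X, 51931 for SCC1 and 70595 for CTCF, or 122526 in all. The labels give an SCC1 antibody for the cohesin library, while SMC1, a different ring subunit, is named in the extraction protocol. The antibody of the labels is followed here.

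Cohesin loads on chromatin and enlarges DNA loops by extrusion. A CTCF molecule bound in the right orientation halts it, through contact between the N-terminal part of CTCF and the cohesin complex, so that cohesin collects at CTCF sites. CTCF recognises a long motif that has a direction, and loops form mostly between sites whose motifs point at each other. Cohesin is also found away from CTCF, at active promoters and enhancers and near sites where it is loaded. No reference sequence of hg19, the build of the peak lists, was used here, so motifs, their directions and the genes at each peak were not analysed.

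With 1 library per antibody there was no replicate check. No p-value is given, and intervals of shares are 95% Wilson intervals that cover counting error over peaks alone, although neighbouring peaks are not independent. Peak strength is the authors' fold enrichment, the signal at the summit over the local background set by the peak caller. Whether that background came from the same library or from an input sample is not given. Fold enrichment serves mainly to rank peaks within their own list, and also for ratios between CTCF peaks and for Pearson's r of log2 values. Deciles run from 1, the lowest fold enrichment, to 10, the highest. The number of fragments covering each summit and the local background were solved from the deposited fold enrichment and p-value. The median summit held 34 fragments (quartiles 22 and 67) in the SCC1 list and 69 (29 and 182) in the CTCF list. The lowest local background, the value for the genome as a whole, was 3.27 fragments for SCC1 and 3.50 for CTCF.

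Most SCC1 peaks lay on a CTCF peak, and a smaller majority of CTCF peaks lay on an SCC1 peak. By the rule of at least 1 bp of overlap, 39152 of the 51931 SCC1 peaks overlapped CTCF, or 75.4% (75.02 to 75.8%). In the other direction, 39756 of the 70595 CTCF peaks overlapped SCC1, or 56.3% (55.9 to 56.7%). The lists cover little sequence, 31.5 Mb for SCC1 and 25.5 Mb for CTCF, which are 1.07% and 0.865% of the span between the outermost peaks of the chromosomes. This left 12779 SCC1 peaks without CTCF and 30839 CTCF peaks without SCC1. The lists differ in length. When the CTCF list was cut to as many peaks as the SCC1 list, keeping the strongest, the shares nearly met, at 69.7% of CTCF peaks and 69.3% of SCC1 peaks.

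The match was almost always of 1 peak with 1 peak. There were 38426 such pairs. In 71.4% (70.9 to 71.8%) of them the CTCF peak lay wholly inside the SCC1 peak, and in 3.61% (3.43 to 3.81%) the SCC1 peak lay wholly inside the CTCF peak. The CTCF summit fell within the SCC1 peak in 98.9% (98.8 to 98.99%). Overlaps were deep, with a median of 406 bp (quartiles 340 and 467). The exceptions were 642 SCC1 peaks that overlapped at least 2 CTCF peaks and 52 CTCF peaks that overlapped at least 2 SCC1 peaks.

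SCC1 was found more often at stronger CTCF peaks. In CTCF decile 10, with a median fold enrichment of 24.8, 98.97% of 7060 peaks had SCC1 (98.7 to 99.2%), against 56.3% over the whole list. The share was 81.6% (80.7 to 82.5%) in decile 7, 64.4% (63.2 to 65.5%) in decile 6, 42.6% (41.4 to 43.7%) in decile 5 and 28.6% (27.6 to 29.7%) in decile 4. The steepest steps thus lay in the middle of the list. In a running window along the list ordered by fold enrichment the share first reached 50% at a CTCF fold enrichment of 10.5, with 48.2% of the list below it.

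The lower end of the CTCF list, as ranked by fold enrichment, broke this order. SCC1 was present at 20.7% (19.7 to 21.6%) of decile 1 but at 16.8% (15.9 to 17.6%) of decile 2, with separate intervals. Within decile 1, the 1459 peaks with SCC1 lay on a raised local CTCF background, with a median of 4.17 fragments against 3.50 for the 5601 without SCC1. Of these 1459, 665 lay within 2 kb of another CTCF peak, against 1904 of all 7060 peaks of decile 1. In decile 10 the background was also higher at peaks with SCC1, 9.42 against 7.69 fragments. The part of the local background in SCC1 presence was not tested. Ranked by −log10 p or by summit fragments, the highest and lowest deciles lay 82.03 and 83.1 points apart, against 78.3 by fold enrichment. Whether deciles 1 and 2 keep their order under those rankings was not examined.

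**Figure D1:**
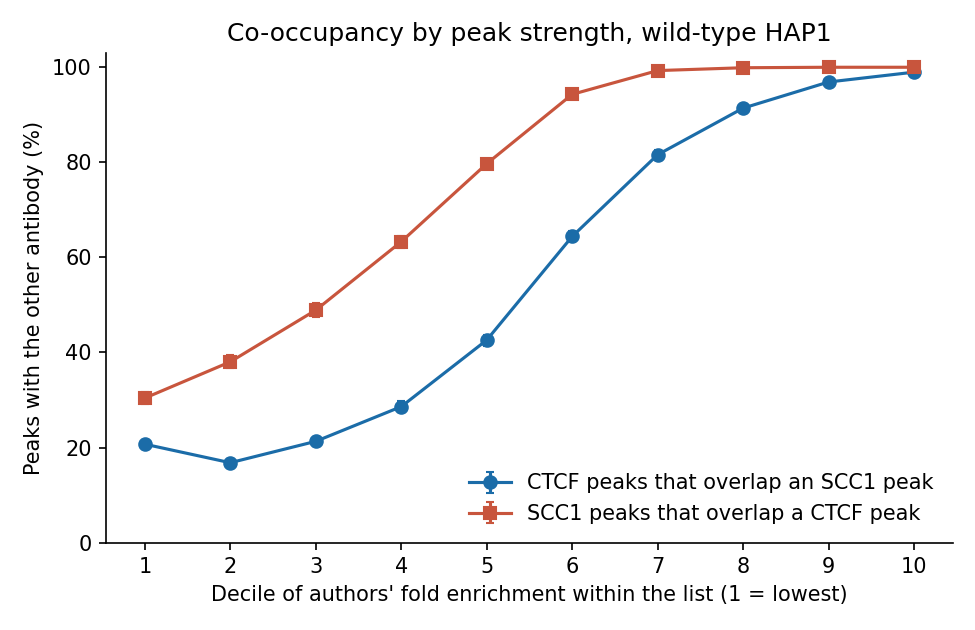
Share of peaks that overlap the other antibody (vertical axis, %) by decile of the authors' fold enrichment within each list (horizontal axis), with 95% Wilson intervals that are mostly smaller than the symbols. The CTCF curve runs from 20.7% in decile 1 to 98.97% in decile 10, and the SCC1 curve from 30.4% to 100%.

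Seen from SCC1, CTCF was almost always present above the middle of the list. All 5193 SCC1 peaks of decile 10 and all 5193 of decile 9 overlapped CTCF (99.9 to 100% for each), against 75.4% of the whole list. There were 3 exceptions in decile 8 and 36 in decile 7. The share was 94.3% (93.7 to 94.9%) in decile 6, 63.3% (62.02 to 64.6%) in decile 4 and 30.4% (29.1 to 31.6%) in decile 1. SCC1 peaks without CTCF were therefore weak, with a fold enrichment of 3.74 in the median (quartiles 3.31 and 4.23) and with 21 summit fragments (17 and 26). SCC1 peaks with CTCF had 7.19 (4.90 and 9.997) and 46 fragments (27 and 80). CTCF peaks without SCC1 were weak in their own list too, at 5.84 (4.45 and 8.77) against 17.8 (11.7 and 22.4) with SCC1. The 2 lists differed at their strong ends: 73 CTCF peaks of decile 10 and 220 of decile 9 had no SCC1 peak.

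Where both proteins were found, their strengths followed each other over the list as a whole. Over the 38426 pairs of 1 peak with 1 peak, the ranks of CTCF and SCC1 fold enrichment had a Spearman rank correlation of 0.74, and Pearson's r of the log2 values was 0.72. This is a correlation across sites of a pair of libraries, which share the cell line, its copy number and the sequence under each peak, and sites are not replicates. The rank correlation was 0.70 for the fragments at the summit and 0.60 for the local background of the paired peaks. By chromosome the rank correlation of fold enrichment ran from 0.67 (chromosome 21) to 0.79 (chromosome 3). Within single CTCF deciles, each a narrow range of fold enrichment, it was far lower. It was 0.35 in decile 1, 0.04 to 0.10 in deciles 2 to 5 and 0.13 to 0.20 in deciles 6 to 10. The median SCC1 fold enrichment was 3.73 (quartiles 3.18 and 4.32) in CTCF decile 1, 5.54 (4.45 and 6.93) in decile 6 and 11.3 (9.35 and 12.7) in decile 10. In fragments at the SCC1 summit these medians were 25, 34 and 85.

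SCC1 peaks of deciles 9 and 10 were found more often at CTCF peaks of decile 10 than at those of decile 6. Of the paired peaks of CTCF decile 10, 70.1% (69.00 to 71.2%) had an SCC1 peak of deciles 9 or 10 and 0.732% (0.557 to 0.961%) an SCC1 peak of deciles 1 to 3. In CTCF decile 6 the same shares were 2.40% (1.98 to 2.89%) and 19.4% (18.3 to 20.6%). Conversely, 87.6% (86.7 to 88.5%) of the paired SCC1 peaks of decile 10 had a CTCF peak of deciles 9 or 10.

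**Figure D2:**
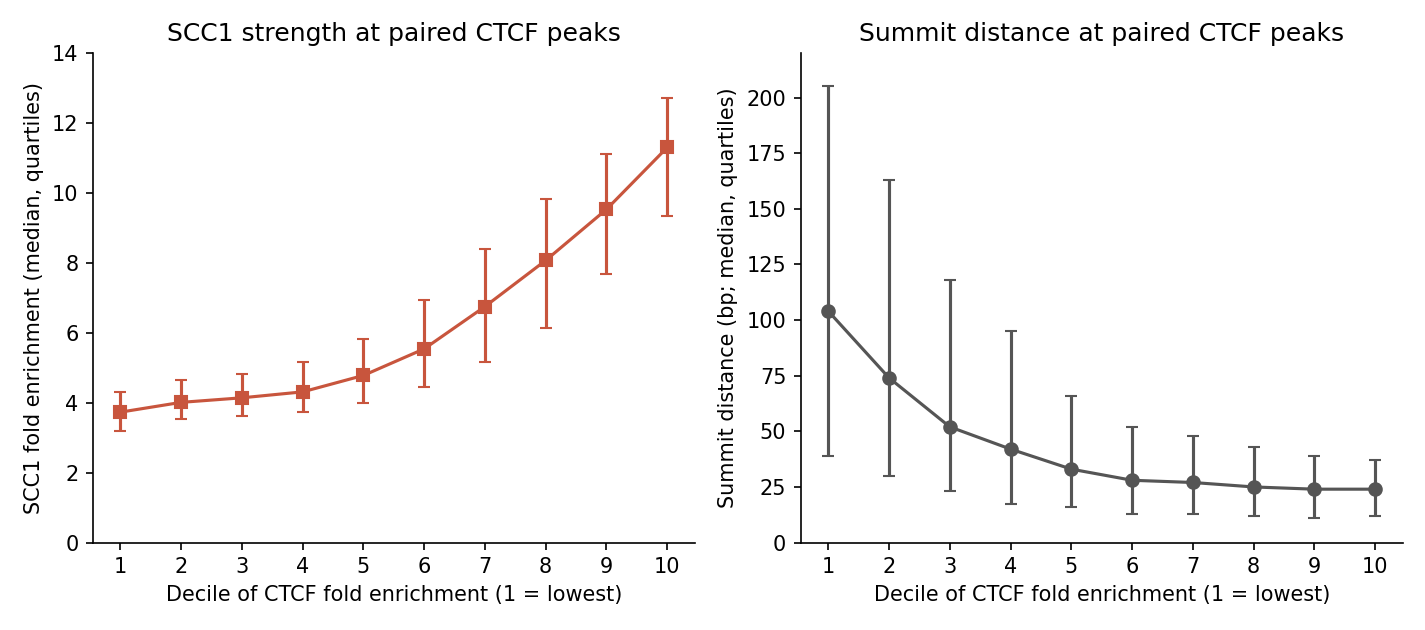
SCC1 fold enrichment (left, vertical axis) and distance between CTCF and SCC1 summits in bp (right, vertical axis) by decile of CTCF fold enrichment, over 38426 pairs of 1 CTCF peak with 1 SCC1 peak. Symbols are medians and bars reach to the quartiles. Median SCC1 fold enrichment runs from 3.73 to 11.3 and the median distance from 104 to 24 bp between deciles 1 and 10.

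Strong peaks of both antibodies were mostly found in company, with 73 exceptions in CTCF decile 10 and 0 in SCC1 decile 10. The CTCF peak of highest fold enrichment (35.1-fold, 213 fragments) lay at chr1:521378-521766 (hg19, counted from 1). Its SCC1 peak had 16.4-fold and a summit 26 bp away. The next 4 CTCF peaks with SCC1 lay at chr8:144483314-144483706 (29.8-fold), chr5:136834827-136835279 (29.6-fold), chr2:111056589-111057000 (29.6-fold) and chrX:2511340-2511776 (29.6-fold). Their SCC1 peaks had 11.8-fold, 14.1-fold, 15.2-fold and 14.3-fold, and all 5 of these SCC1 peaks stood in SCC1 decile 10.

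The highest SCC1 peak (20.5-fold, 176 fragments) lay at chr2:33141080-33141685. It departed from the other leading SCC1 peaks, since its CTCF peak stood in CTCF decile 8 (17.7-fold) with a summit 109 bp away. The next 4 SCC1 peaks lay at chr1:223254598-223255364 (17.1-fold), chr10:88698945-88699728 (16.9-fold), chr17:4316155-4316971 (16.9-fold) and chr10:129704964-129705659 (16.9-fold). Their CTCF peaks all stood in decile 10, with summits 36, 11, 22 and 6 bp away.

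The strongest CTCF peaks without SCC1 all stood in CTCF decile 10, a little below the leading peaks with SCC1. They lay at chr1:2838578-2839005 (28.5-fold, 250 fragments), chr1:182038113-182038536 (28.5-fold, 274 fragments), chr14:91282666-91283064 (28.4-fold, 279 fragments), chr6:33129217-33129600 (27.6-fold, 123 fragments) and chr10:102998483-102998887 (27.2-fold, 294 fragments). The nearest SCC1 summits were 90432, 11945, 57930, 37710 and 24036 bp away. The 73 CTCF peaks of decile 10 without SCC1 were spread over 17 chromosomes. Their median fold enrichment was 24.5, against 24.8 for those with SCC1. Their summits held a median of 217 fragments (quartiles 190 and 250) against 259 (234 and 284), and their median width was 436 bp against 463 bp. None of the 73 had an SCC1 summit within 2 kb, and the median distance to the nearest was 30.7 kb, so these are not near misses of the overlap rule.

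The strongest SCC1 peaks without CTCF stood in SCC1 deciles 7 and 8, and none reached decile 9. They lay at chr16:5804540-5805286 (9.59-fold, 40 fragments), chr2:126502992-126503648 (9.54-fold, 44 fragments), chr11:355705-356650 (8.69-fold, 62 fragments), chr4:124570717-124571672 (8.28-fold, 78 fragments) and chrX:88660072-88660606 (8.19-fold, 34 fragments). The nearest CTCF summits were 120973, 228975, 5710, 9925 and 55144 bp away.

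A few SCC1 peaks of the upper deciles lay over CTCF peaks of the lowest decile. Of the 1193 SCC1 peaks whose CTCF peaks all stood in CTCF decile 1, 44 stood in SCC1 deciles 6 to 10. The highest lay at chr3:73159695-73160368, where SCC1 had 9.67-fold (58 fragments) and CTCF 4.14-fold (18 fragments), with summits 4 bp apart. The next lay at chr12:95227-95945 (SCC1 8.98-fold, CTCF 4.10-fold) and chr5:79783634-79784535 (SCC1 8.09-fold, CTCF 3.91-fold). On chromosome 12 the CTCF summit held 77 fragments despite its low fold enrichment, against 17 on chromosome 5.

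CTCF and SCC1 summits nearly coincided. Over the 38426 pairs the median distance was 28 bp (quartiles 13 and 49), far below the 400 to 800 bp to which the labels' protocols say chromatin was sheared. It was at most 50 bp in 76.4% (75.97 to 76.8%), at most 100 bp in 91.1% (90.8 to 91.3%) and at most 200 bp in 96.7% (96.6 to 96.9%). Along the reference strand the SCC1 summit lay on either side about equally often, on the side of higher coordinates in 48.4% (47.9 to 48.9%), with a signed median of -2 bp. In 386 pairs both summits fell on the same base.

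Summits lay closer together at stronger peaks. The median distance was 104 bp (quartiles 39 and 205) in CTCF decile 1, 52 bp (23 and 118) in decile 3, 28 bp (13 and 52) in decile 6 and 24 bp (12 and 37) in decile 10. Beyond decile 6 it moved by no more than 4 bp. Ordered by SCC1 instead, it was 67 bp (27 and 152) in SCC1 decile 1 and 23 bp (11 and 35) in decile 10. SCC1 strength went with distance also at like CTCF strength: among pairs of CTCF decile 8 the median was 50 bp (24.2 and 96.5) over 82 pairs with SCC1 decile 2, 33 bp over 329 with decile 4 and 23 bp over 1387 with decile 8. Summits with fewer fragments are placed less precisely, and the part of depth in these distances was not tested.

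**Figure D3:**
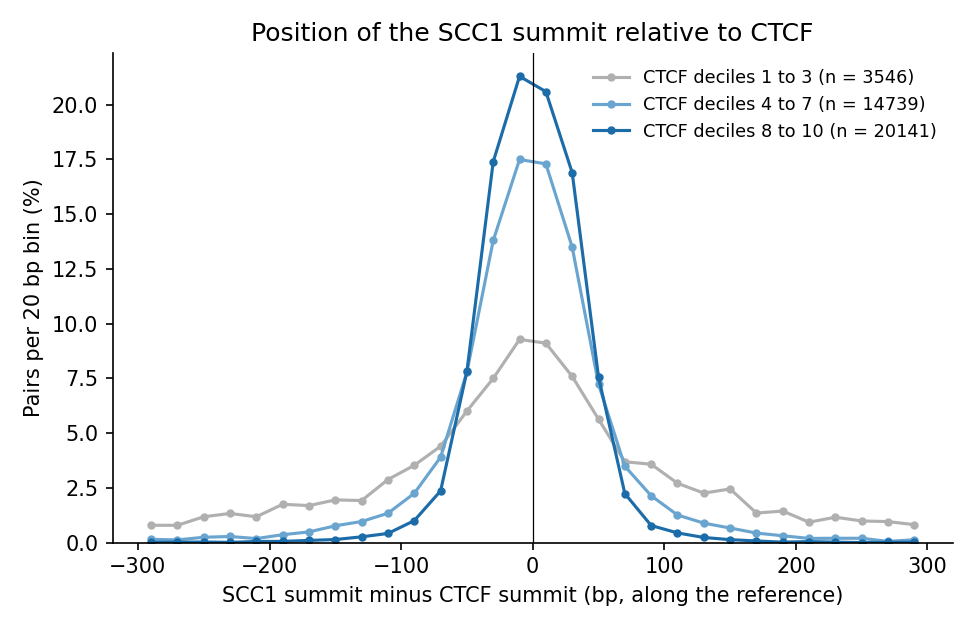
Distribution of the SCC1 summit position minus the CTCF summit position in bp (horizontal axis), as the percentage of pairs per bin of 20 bp (vertical axis), for pairs in CTCF deciles 1 to 3, 4 to 7 and 8 to 10. Each curve has a single maximum at the CTCF summit. That of deciles 8 to 10 is narrow, and that of deciles 1 to 3 has long tails on both sides.

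SCC1 peaks were wider than CTCF peaks at the same site. The CTCF peak had a median of 0.689 times the width of its SCC1 peak, and the SCC1 peak was the wider in 89.2% (88.9 to 89.5%) of pairs. Median widths were 592 bp (quartiles 451 and 727) for SCC1 and 352 bp (265 and 435) for CTCF. CTCF peaks with SCC1 had a median of 414 bp (355 and 481) and those without 268 bp (218 and 325). Most of that gap went with strength, since within CTCF deciles 1 to 10 the difference of medians was small: 224 against 197 bp in decile 1, 370 against 350 bp in decile 6 and 463 against 436 bp in decile 10. Peaks with SCC1 were the wider in each of the 10 deciles.

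The widths of SCC1 peaks reversed their order once strength was held equal. Over the whole list, SCC1 peaks without CTCF were narrower, with a median of 472 bp (quartiles 359 and 652) against 619 bp (496 and 738) for those with CTCF, a ratio of 1.31. Within deciles 2 to 7 of SCC1 fold enrichment those without CTCF were the wider. In decile 1 the medians were 387 bp without CTCF and 390 bp with 1 CTCF peak. In decile 4 they were 587 bp (458 and 768; 1904 peaks) and 456 bp (379 and 570; 3199 peaks), and in decile 6 736 bp (570.5 and 906; 294 peaks) and 554 bp (494 and 642; 4816 peaks). From deciles 4 to 7 SCC1 peaks without CTCF were 1.29 to 1.33 times as wide. Peaks of 1000 bp or more made up 10.4% (8.65 to 12.3%) of decile 5 without CTCF and 3.77% (3.22 to 4.40%) with 1 CTCF peak. In decile 1 the order was the opposite, at 1.41% (1.07 to 1.85%) without CTCF and 3.13% (2.37 to 4.13%) with it, and in deciles 2 and 3 the intervals overlapped. The local background at the decile 5 peaks was 4.80 fragments without CTCF and 4.29 with it, and its part in the width was not tested.

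**Figure D4:**
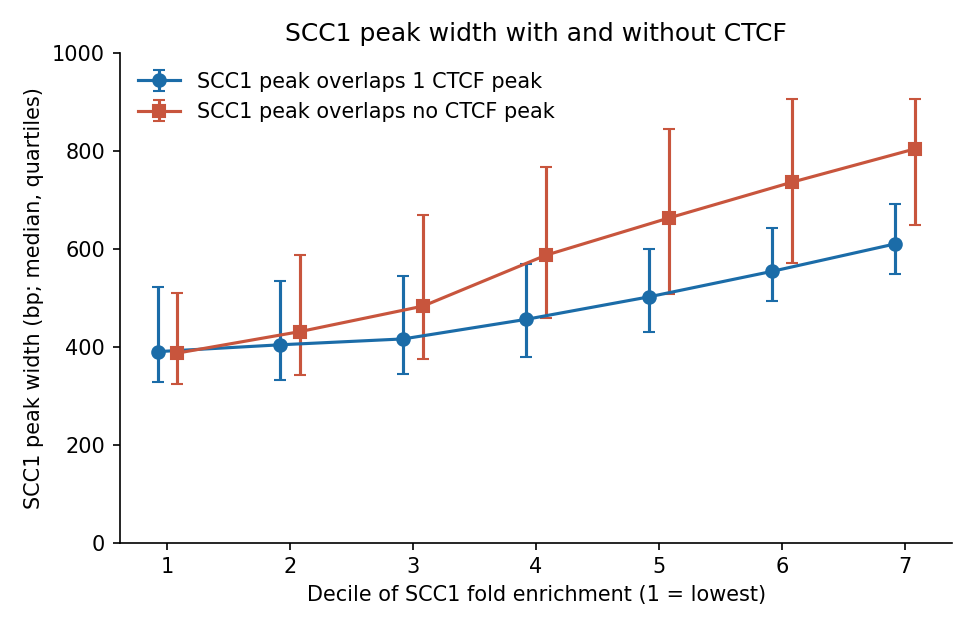
SCC1 peak width in bp (vertical axis; symbols are medians, bars reach to the quartiles) by decile of SCC1 fold enrichment, for peaks that overlap 1 CTCF peak and peaks that overlap none. Deciles with under 20 peaks of either class are left out. The classes start together at 390 and 387 bp in decile 1 and part from decile 2 on, to 610 and 804 bp in decile 7.

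In SCC1 peaks that held several CTCF peaks, the SCC1 summit lay nearest the strongest CTCF peak more often than not. An SCC1 peak has to be wide to reach several CTCF peaks, so its width here is set by the class. The 642 such peaks had a median width of 1076.5 bp (quartiles 835 and 1301.8), and the outermost CTCF summits within them were a median of 587 bp apart. The SCC1 summit lay nearest to the CTCF peak of highest fold enrichment in 452 of them, or 70.4% (66.8 to 73.8%). Where the CTCF folds were at least 2 times apart, this was so in 231 of 267, or 86.5% (81.9 to 90.1%). The SCC1 peak with most CTCF peaks, 4, lay at chrX:58578558-58581055. It had only 2.04-fold over a local background of 83.9 fragments, the lowest decile of the list. The next, with 3 CTCF peaks each, lay at chr19:59030483-59031824 (9.44-fold, 1342 bp) and chr15:63796185-63797824 (7.05-fold, 1640 bp).

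The spacing of each class is given as a description, since any subset of a list has wider gaps than the list. Neighbouring summits were a median of 22.1 kb apart (quartiles 8.78 and 49.9) over all CTCF peaks, 38.9 kb (14.7 and 87.5) over those with SCC1 and 53.7 kb (19.9 and 118) over those without. For SCC1 the medians were 29.4 kb over all peaks, 39.8 kb (15.6 and 88.6) over those with CTCF and 87.7 kb (30.3 and 229) over those without. Of the neighbouring pairs of SCC1 peaks without CTCF, 4.37% (4.03 to 4.74%) lay within 2 kb, although they are the smaller class, against 2.81% (2.65 to 2.98%) for SCC1 with CTCF.

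For peaks without a partner, the distance to the nearest peak of the other antibody is given as a description. The class excludes overlap by definition, and no share for random positions was computed. The nearest CTCF summit lay a median of 12.6 kb (quartiles 5.16 and 27.00) from an SCC1 peak without CTCF. It was within 1 kb for 933 of 12779, or 7.30% (6.86 to 7.77%), and within 10 kb for 42.95% (42.1 to 43.8%). The nearest SCC1 summit lay a median of 15.3 kb (6.12 and 35.7) from a CTCF peak without SCC1, and within 1 kb for 4.06% (3.85 to 4.29%). The SCC1 peaks most remote from any CTCF summit stood in SCC1 deciles 2, 5 and 3. They lay at chr5:12705158-12705459 (412362 bp away, 3.74-fold, 15 fragments), chrX:146132759-146133145 (343400 bp, 5.15-fold, 21 fragments) and chr10:20447255-20447669 (325185 bp, 4.16-fold, 19 fragments).

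A CTCF peak close to another CTCF peak had SCC1 more often than an isolated one of like fold enrichment. Without regard to strength the share was 58.1% (57.1 to 59.1%) where the nearest CTCF summit was within 2 kb and 52.7% (51.4 to 53.9%) where it was over 50 kb away. Close peaks had a lower fold enrichment, with a median of 7.28 against 10.9. In CTCF decile 5 the shares were 60.8% (57.7 to 63.7%) and 35.3% (31.7 to 39.1%), and in decile 6 83.1% (80.7 to 85.2%) and 56.9% (52.96 to 60.8%). With the deciles weighted equally they were 68.6% and 52.7%. Between 10 and 50 kb the value was 52.6%, so the rise was confined in these classes to distances under 10 kb, where 2 to 10 kb gave 56.01%. Local background went with it: in decile 6 it was 12.1 fragments within 2 kb and 4.10 beyond 50 kb. At like fold enrichment a higher background means more fragments at the summit. Close and isolated peaks were therefore not matched on CTCF fragments, and the comparison was not repeated with peaks ranked by fragments. A wide SCC1 peak can reach over 2 CTCF peaks, and with CTCF peaks in such SCC1 peaks left out the value within 2 kb was 63.3%. When summits within 200 bp were required in place of overlap, the difference between close and isolated peaks was 9.81 percentage points, against 15.9. The part of the background was not tested.

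When SCC1 was found at a single member of a pair of neighbouring CTCF peaks, it was mostly the stronger. Of 70572 neighbouring pairs, 32.4% (32.02 to 32.7%) had SCC1 at both, 47.9% (47.5 to 48.3%) at 1 alone and 19.7% (19.5 to 20.04%) at neither. Of all CTCF peaks 56.3% had SCC1, and pairs of CTCF peaks that are not neighbours were not compared. Of the 33731 pairs with SCC1 at 1 alone and unequal folds, SCC1 lay at the stronger peak in 29880, or 88.6% (88.2 to 88.9%). The share was 58.7% (56.9 to 60.5%) where the CTCF folds were under 1.2 times apart, 83.4% (82.3 to 84.4%) between 1.5 and 2 times and 98.6% (98.4 to 98.8%) at 3 times or more. It depended little on distance, at 83.9% (82.2 to 85.5%) within 2 kb, 89.1% (88.4 to 89.7%) between 20 and 50 kb and 87.5% (84.9 to 89.6%) over 200 kb. Stronger CTCF peaks had SCC1 more often over the whole list, so this share need not be particular to neighbours.

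The side of the CTCF summit on which SCC1 lay depended on how far away the next occupied CTCF site was. For 13977 neighbouring pairs of CTCF peaks with SCC1, in which each SCC1 summit lay 20 to 200 bp from its CTCF summit, the SCC1 summits could lie toward each other, away from each other or both to the same side. Up to 20 kb, 883 of 4257 pairs faced each other, or 20.7% (19.6 to 21.99%), and 1163 faced away, or 27.3% (26.00 to 28.7%). Over 100 kb the order was the opposite, with 976 of 3092 facing each other, or 31.6% (29.95 to 33.2%), and 593 facing away, or 19.2% (17.8 to 20.6%). Between 50 and 100 kb the values were 25.8% (24.3 to 27.4%) and 23.5% (22.04 to 25.1%), with overlapping intervals. Beyond 200 kb they were 33.03% (30.3 to 35.9%) and 18.3% (16.2 to 20.7%). The share on the same side stayed near the middle, from 55.3% (52.2 to 58.4%) up to 5 kb to 48.6% (45.7 to 51.6%) beyond 200 kb. Over all distances 3492 pairs faced each other and 3387 faced away. An SCC1 summit that lies toward one neighbour lies away from the other, which by construction holds these totals close to each other. An excess of facing pairs at long distances therefore goes with a deficit at shorter ones. The orders at long and short distances are not separate results.

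The orders at long and short distances held on most chromosomes. Over 100 kb, pairs facing each other outnumbered those facing away on 22 of 23 chromosomes, the exception being chromosome 14 (18 and 21). Up to 20 kb, pairs facing away outnumbered the others on 20 of 23, the exceptions being chromosomes 15 (38 and 43), 18 (18 and 24) and 21 (5 and 6). Because the orders are linked, these chromosome counts are not separate checks. With the middle of the SCC1 peak in place of its summit, 62.2% (60.1 to 64.3%) of the pairs that faced each other or away faced each other over 100 kb, and 40.2% (38.2 to 42.1%) up to 20 kb. By summits these were 62.2% (59.8 to 64.6%) and 43.2% (41.03 to 45.3%). When both offsets had to reach 40 bp, the value over 100 kb was 59.03% (54.3 to 63.6%), while that up to 20 kb was 47.03% (42.6 to 51.5%), an interval that includes 50%.

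**Figure D5:**
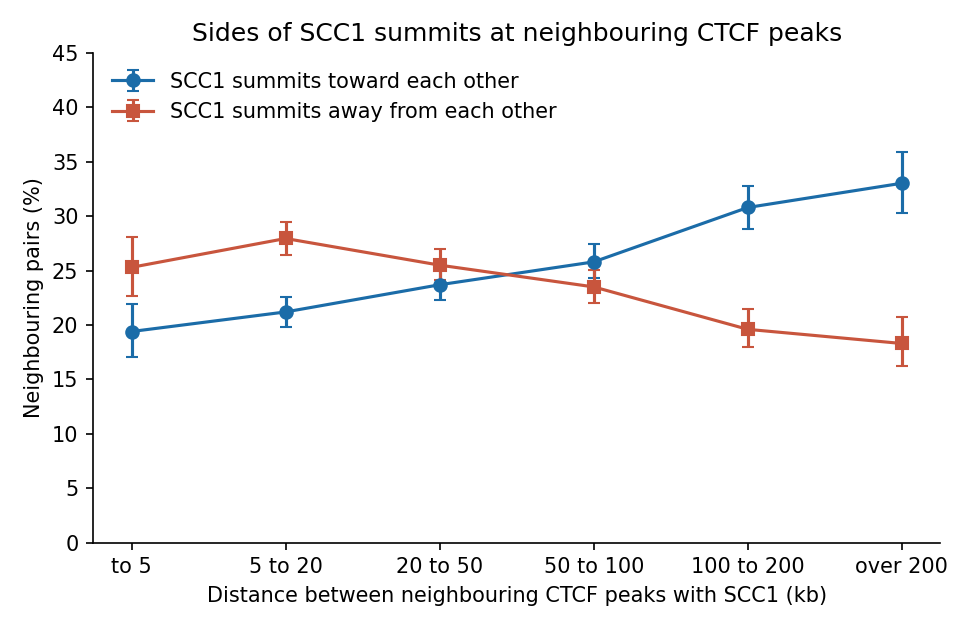
Share of neighbouring pairs of CTCF peaks with SCC1 (vertical axis, %) whose SCC1 summits lay toward each other or away from each other, by the distance between the CTCF summits in kb (horizontal axis, unequal bins), with 95% Wilson intervals. The remaining pairs had both SCC1 summits to the same side. The curves cross between 20 and 100 kb.

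SCC1 presence varied little between chromosomes. The share of CTCF peaks with SCC1 ran from 50.5% (46.9 to 54.1%) on chromosome 21 to 59.7% (57.99 to 61.3%) on chromosome 12, against 56.3% in all. The share of SCC1 peaks with CTCF ran from 71.04% (68.6 to 73.4%) on chromosome 13 to 80.6% (78.6 to 82.4%) on chromosome 19. Chromosome 19 was also the densest in CTCF, with 39.6 peaks per Mb against 18.8 on chromosome 21. Chromosome 15, on which HAP1 cells are known to carry an extra copy of a segment, had a median local background of 7.06 fragments at CTCF peaks and 6.67 at SCC1 peaks, the highest of the 23 chromosomes for both antibodies. Its share of CTCF peaks with SCC1 was 57.4% (55.5 to 59.3%). With the CTCF deciles weighted equally it was 60.7%, the highest of the 23 chromosomes, followed by 58.8% on chromosome 4, and the part of the background in it was not tested. The median summit distance was 26 to 30 bp on every chromosome.

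Windows hold far fewer peaks than chromosomes, so counting error alone spreads their shares more, and the 2 spreads are not compared. Over 522 windows of 5 Mb with at least 50 peaks in each list, the numbers of CTCF and SCC1 peaks had a Spearman rank correlation of 0.86 (windows share mappability and copy number between the libraries). The share of CTCF peaks with SCC1 had a median of 57.01%, with 47.00% and 66.03% as the 5th and 95th percentiles. The lowest was 31.3% (56 of 179 peaks) at 30 to 35 Mb of chromosome 6, and the highest 73.2% (90 of 123) at 110 to 115 Mb of chromosome 4. The share of SCC1 peaks with CTCF had 60.9% and 87.3% as the same percentiles, with the lowest value, 42.4% (53 of 125), at 120 to 125 Mb of chromosome 5 and the highest, 98.2% (55 of 56), at 105 to 110 Mb of chromosome 14. The chromosome 6 window includes part of the major histocompatibility complex. For that complex hg19 also holds alternate haplotype contigs, and 679 CTCF and 141 SCC1 peaks were called on those of chromosome 6, outside the peaks used here. The part of read placement in the low share was not tested.

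The longest stretches of CTCF without SCC1 both lay on chromosome 14. Consecutive CTCF peaks without SCC1 formed 16902 runs with a median length of 1 peak, and 95% of runs held at most 4. The longest held 21 CTCF peaks from 22401909 to 22771896, and the next 19 from 106892105 to 107074878. These stretches were singled out after their values were seen. On textbook maps they fall in the variable gene segments of the T cell receptor alpha and delta locus and of the immunoglobulin heavy chain locus, which are arrays of gene segments joined by recombination in lymphocytes. Neither stretch held any SCC1 peak. Their CTCF peaks were not weak, with a median fold enrichment of 13.01 (from 4.70 to 24.3) in the first and 12.8 (from 4.10 to 25.8) in the other. These medians fall in CTCF decile 6, in which 64.4% of peaks genome-wide had SCC1. The runs were chosen because their CTCF peaks lack SCC1, so this share is no test of depletion. The longest runs with SCC1 held 18 CTCF peaks on chromosome 7 from 76145172 to 76877009 (median 10.2-fold) and 17 on chromosome 6 from 36997013 to 37452365 (median 16.03-fold), each with 20 SCC1 peaks inside.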

How the data were processed

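ChIP-seq peaks of SCC1 and CTCF in wild-type HAP1 cells were compared, 1 library per antibody. Per the labels' protocols, cells were fixed in 1% formaldehyde. Trim Galore, MACS2 and the build hg19 are named in the submitters' processing notes. Of the aligner, the calling options and an input sample, nothing is given in the sources used here. Each list holds the peaks of 1 library, with 1 summit per entry. As deposited, a peak carries a fold enrichment (a ratio) and its p-value and q-value as −log10, all from the authors' caller. The deposited score is −log10 q times 10 as a whole number and was not used. Lists from the mutant line were not analysed here.

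Overlap needed at least 1 bp. CTCF peaks with several SCC1 peaks were paired with the nearest summit. Summit fragments and local background were solved from fold enrichment, (fragments + 1) / (background + 1), and the Poisson p-value. Solved fragments lay within 0.01 of a whole number in all but 1 CTCF peak. The 5% of peaks with fewest fragments had at most 16 (SCC1) and 17 (CTCF). Peaks were named by position: the 5 of highest fold enrichment with and without a partner in each list, 3 SCC1 peaks over CTCF of decile 1 alone, 3 with most CTCF peaks and 3 farthest from CTCF. Members, rules and comparisons were chosen with earlier results of these data known. Computation used scipy 1.17.1, numpy 2.4.6 and pandas 2.3.3 under Python 3.11.15, with plots by matplotlib 3.10.9. Pairing and the solved counts were tested on simulated data (overlaps against bedtools 2.31.1). The closing section gives the alternatives.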

Additional observations from a re-analysis of the deposited data

Results flagged for a closer look

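Peaks were also called outside chromosomes 1 to 22 and X, in data that the comparisons did not use. There were 1305 such CTCF peaks and 419 such SCC1 peaks, of which 736 and 159 lay on alternate haplotype contigs of hg19. Of these CTCF peaks 30.9% (28.4 to 33.4%) overlapped SCC1, and of these SCC1 peaks 91.4% (88.3 to 93.7%) overlapped CTCF. No control library was analysed here.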

How the results depend on the processing

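No paired analysis was possible because there is a single library for each antibody. Of 91 alternatives over 12 results, 43 were planned and 48 were chosen after seeing the data. None reversed a direction, 52 stayed within the interval of the main value and 39 left it. Without chromosome 15, all 12 stayed within it. The overlap shares, the median summit distance and the spacing have no direction that could be reversed.

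With 50% of the narrower peak, CTCF had SCC1 in 55.6% and SCC1 had CTCF in 74.7%, the highest and lowest CTCF deciles were 80.5 points apart, SCC1 lay at the stronger neighbour in 88.96%, close and isolated CTCF were 14.5 points apart (main 15.9) and the median gap between CTCF peaks with SCC1 was 39.5 kb. With summits within 200 bp these were 53.6%, 72.8%, 85.6 points, 89.6%, 9.81 points and 41.5 kb, the summit distance was 27 bp and the SCC1 width ratio 1.26. With −log10 q of at least 5 they were 54.6%, 82.6%, 83.4 points, 89.8% and 41.99 kb, with a rank correlation of 0.72, 27 bp and a width ratio of 1.10. With lists of equal length they were 69.7%, 69.3%, 74.99 points, 12.7 points for close CTCF and 43.2 kb, with a rank correlation of 0.70 and 27 bp. All sequences gave 55.9% of CTCF with SCC1. Ranked by −log10 p, the deciles were 82.03 points apart and the rank correlation was 0.72, and by summit fragments 83.1 points and 0.69. Over pairs of 1 peak with 1 peak the rank correlation was 0.74.

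Without CTCF peaks that share an SCC1 peak, close and isolated CTCF were 10.7 points apart; this and the summit rule lower the main difference by construction, since they remove or refuse SCC1 peaks that reach a neighbour. Of pairs facing each other or away, those facing each other made up 59.03% over 100 kb and 47.03% up to 20 kb when offsets had to reach 40 bp, the latter with an interval that includes 50%, and 40.2% up to 20 kb by the middle of the SCC1 peak. The cause of the other moves was not tested. Depth was not varied. The 5% of peaks with fewest summit fragments rested on at most 16 (SCC1) and 17 (CTCF).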
